A study of Mus musculus with 9 samples.

Results

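NF-kB is a family of dimeric transcription factors, and the 10 genes described here encode its 5 subunits and 5 of its regulators. The subunits are Nfkb1 (p105, the precursor of p50), Nfkb2 (p100, the precursor of p52), Rela (p65), Rel (c-Rel) and Relb. The regulators are the IkB proteins Nfkbia (IkBα), Nfkbie (IkBε), Nfkbid (IkBNS) and Bcl3, and the ubiquitin-editing enzyme Tnfaip3 (A20). They were taken by gene symbol from a table of 41978 genes, and all 10 were found once each and passed the filter for low expression. The question was how their transcripts differed between thymocytes that had received weak and strong T cell receptor (TCR) signals.

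The 9 samples were bulk RNA-seq libraries of semi-mature CD4 single positive (SP4) thymocytes from Nur77-eGFP BAC Tg mice on the C57BL/6 background. In these mice regulatory DNA of Nr4a1 on a bacterial artificial chromosome drives GFP, so GFP reports TCR signaling in every group. Live CD25- CD69+ CD24+ CD4+ CD8- cells were sorted into the roughly 10% with the lowest, medium and highest GFP, called GFPlo, GFPmed and GFPhi, with 3 biological replicates of 10000 cells each. The labels give the 3 gates a shared replicate number but do not say which mice each sample came from. They name no treatment, and no reporter-free group was among the samples.

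In resting T cells IkB proteins hold Rela and Rel dimers in the cytoplasm. TCR and costimulatory signals reach the IkB kinase (IKK), IkBα is degraded and the dimers enter the nucleus, while a slower route driven by TNF receptor family members processes p100 to p52 and frees RelB. Several IkB genes, Tnfaip3 and the genes of some subunits are themselves NF-kB targets, which makes their transcripts part of a feedback circuit, and Rel is known for its role in the development of Foxp3+ regulatory T cells (Treg) in the thymus.

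Sequence upstream of the genes is shown first because NF-kB acts through the kB motif, a short sequence of 10 bases that the dimers bind. RefSeq promoters (build GRCm38) were available for 8 of the 10 genes, all but Nfkb1 and Relb. In the 250 bases before a start site, read on both strands, 6 of the 8 genes held at least 1 match, namely Nfkb2, Rel, Nfkbia, Nfkbie, Nfkbid and Tnfaip3. By the same search 2225 of 27025 genes, or 8.23%, held a match, and so did 7.25% of 32851 promoters. Rela, with 1 promoter, and Bcl3, with 1 promoter, held none in this window. A match describes letters and was not tested as a binding site, and its absence describes this window alone.

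The stretches below end 1 base before the RefSeq start site, except that of Nfkb2, which covers bases -41 to -12. They are shown for 5 genes that rose with GFP and hold a match, and for Bcl3, which rose most and holds none; capitals mark matches to the kB motif on either strand, joined where they overlap.
Nfkb2, chr19:46304696-46304725, plus strand: acGGGAATTCCCCccctcggggggccgaaa
Rel, chr11:23770970-23771099, minus strand: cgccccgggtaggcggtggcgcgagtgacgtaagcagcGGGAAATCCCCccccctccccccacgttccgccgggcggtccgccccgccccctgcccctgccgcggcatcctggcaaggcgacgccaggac
Nfkbia, chr12:55492648-55492777, minus strand: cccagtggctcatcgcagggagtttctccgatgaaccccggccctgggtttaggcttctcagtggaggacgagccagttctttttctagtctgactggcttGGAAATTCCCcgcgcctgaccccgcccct
Nfkbie, chr17:45555570-45555699, plus strand: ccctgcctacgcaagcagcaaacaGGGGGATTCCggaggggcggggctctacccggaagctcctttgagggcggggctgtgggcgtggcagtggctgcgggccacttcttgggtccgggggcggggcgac
Tnfaip3, chr10:19015411-19015540, minus strand: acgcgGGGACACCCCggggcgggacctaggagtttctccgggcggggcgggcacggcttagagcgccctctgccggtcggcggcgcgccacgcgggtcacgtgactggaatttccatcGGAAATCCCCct
Bcl3, chr7:19822756-19822885, minus strand: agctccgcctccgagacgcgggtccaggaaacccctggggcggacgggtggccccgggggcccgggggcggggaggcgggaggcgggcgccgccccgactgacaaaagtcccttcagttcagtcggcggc

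The matches nearest to a start site were those of Nfkb2, at bases -11 to -2, of Tnfaip3, at -12 to -3, and of Nfkbia, at -29 to -20. Nfkb2 has 3 start sites in RefSeq and each held a match, whereas of the 3 start sites of Nfkbid only the second did. Nfkbid held a match and did not pass the test below, and Bcl3 held none and rose most.

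**Figure D1:**
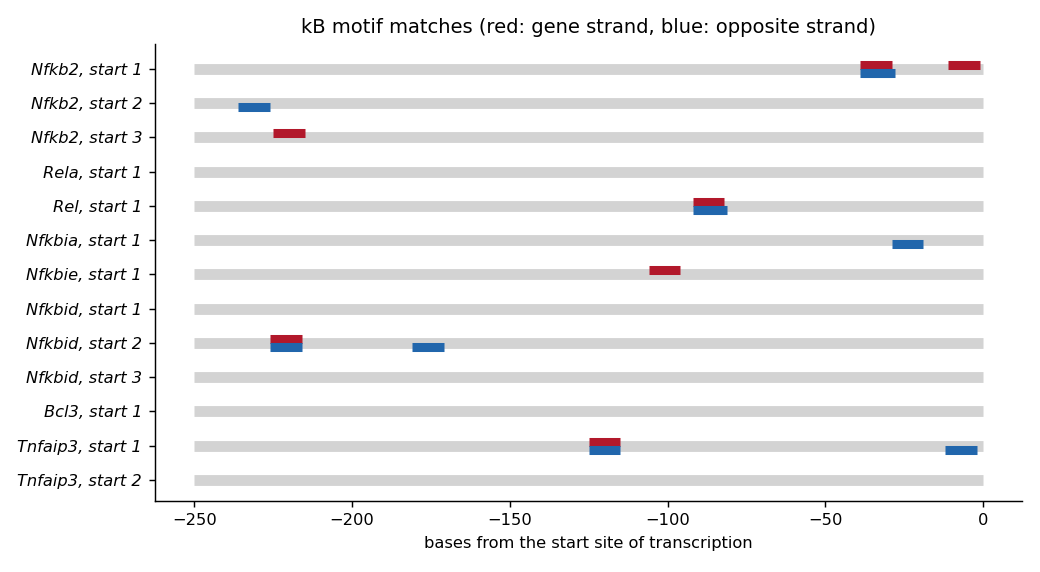
Matches to the kB motif in the 250 bases before each RefSeq start site of 8 genes, with distance from the start site in bases on the x axis and 1 grey bar per start site. Red marks are matches on the gene's strand and blue marks on the opposite strand. Rela and Bcl3 have empty bars, and the matches of Nfkb2, Nfkbia and Tnfaip3 reach to within 30 bases of a start site.

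Reads on genes ran from 7465552 to 14943774 per sample. Values are in TPM (transcripts scaled to the same total in every sample), the deposited unit, and were tested as log2(TPM + 1) with limma over all 9 samples. A gene rose or fell where its Benjamini-Hochberg adjusted p over 30693 tested genes was at most 0.05, and it was a differentially expressed gene (DEG) where its absolute log2 fold change (log2FC) was also at least 1. Nr4a1 itself ran from 187.0 to 250.9 TPM in GFPlo, from 351.1 to 406.3 TPM in GFPmed and from 767.4 to 917.3 TPM in GFPhi, in the order of the gates.

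From GFPlo to GFPhi 7 of the 10 genes rose, namely Nfkb2, Rel, Relb, Nfkbia, Nfkbie, Bcl3 and Tnfaip3, where 2.38% of all tested genes rose. No member fell by limma's adjusted p, at an unadjusted p under 0.05 (0 genes) or by limma-voom (0 genes). Only Bcl3 was a DEG, where 1.26% of all genes were DEG in that direction. With only these 2 groups in the fit Rel and Relb did not pass. With median-of-ratios scaling over all expressed genes Nfkbie and Bcl3 alone passed, and with that scaling on 8635 genes of at least 100 reads in every sample all 7 did. In these fits, in the order given, 551, 413 and 1397 of all genes passed in either direction, beside 1194 in the main fit. For the 7 genes the 3 groups were in order without any overlap of samples. This is a description, since the 7 passed the test on these same samples. The share of all genes in such an order was not computed. All samples of GFPhi lay above all of GFPlo for 8 of 10 genes, against 8.26% of all genes. The median log2FC of the 10 genes was 0.83, beside -0.09 over all tested genes. In bulk samples, a larger share of cells with a transcript and more transcript per cell cannot be told apart.

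**Figure D2:**
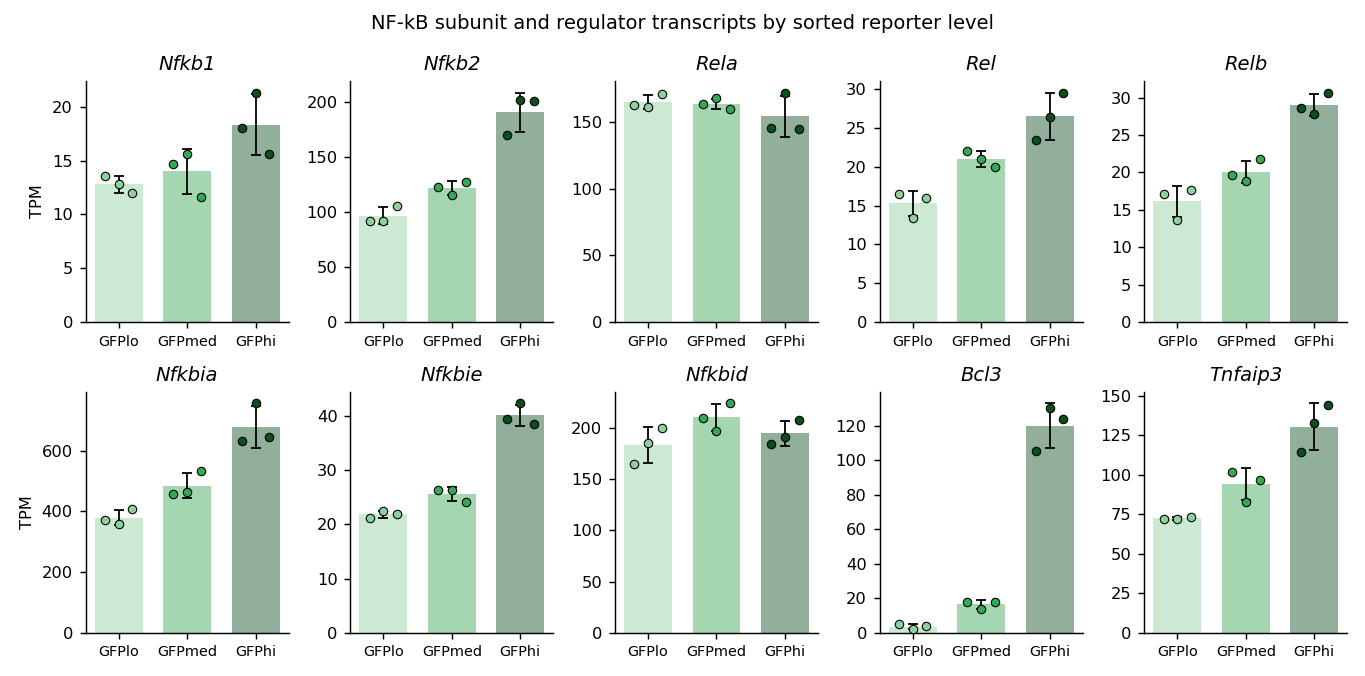
TPM of the 10 genes (y axis, 1 scale per gene, from 0) in GFPlo, GFPmed and GFPhi thymocytes. Points are samples, bars are means of 3 samples and whiskers are SD. Bcl3 goes from 3.64 to 120.1 TPM between GFPlo and GFPhi, 6 other genes rise in order with no overlap, and Rela and Nfkbid overlap between all groups.

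Among the subunits Nfkb2 changed most. Nfkb2, whose product p100 both inhibits RelB and is the source of p52, stood at 92.4, 92.3 and 106.0 TPM in the GFPlo samples, at 123.1, 115.2 and 127.4 TPM in GFPmed and at 170.0, 201.7 and 200.7 TPM in GFPhi. The highest GFPlo sample lay below the lowest GFPmed sample, and the highest GFPmed sample below the lowest GFPhi sample. Its mean was 96.9 ± 7.87 TPM in GFPlo and 190.8 ± 18.0 TPM in GFPhi (SD, n = 3), 1.97-fold higher, with a log2FC of 0.97 (SE 0.09, limma, adjusted p = 0.00137). That placed it just under the fold limit of a DEG. Psd and AC114539.1 on the opposite strand overlap 18.1% of its exonic bases, and without strand their reads cannot be told apart from those of Nfkb2. Psd, at 6.36 to 16.1 TPM over the 9 samples, did not pass the test (log2FC 0.54, adjusted p = 0.335), and AC114539.1 was not tested.

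Relb, the partner of p52, and Rel both rose. Relb was at 17.1, 13.7 and 17.6 TPM in GFPlo, at 19.6, 18.9 and 21.8 TPM in GFPmed and at 28.6, 27.9 and 30.7 TPM in GFPhi. The GFPhi samples were close to each other and well clear of GFPmed, and the log2FC between GFPhi and GFPlo was 0.82 (SE 0.12, adjusted p = 0.0106). Rel, the subunit found mainly in lymphoid cells, was at 16.5, 13.5 and 15.9 TPM in GFPlo, at 22.1, 21.0 and 20.01 TPM in GFPmed and at 23.4, 26.5 and 29.6 TPM in GFPhi. Its gap between GFPlo and GFPmed was wider than that between GFPmed and GFPhi, and its log2FC between GFPhi and GFPlo was 0.75 (SE 0.12, adjusted p = 0.0158). Without GFPhi replicate 3 neither gene passed, and without GFPlo replicate 2 or 3 Rel did not pass.

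Nfkb1 and Rela did not pass the test. Nfkb1, the source of p50, was at 13.6, 12.9 and 12.01 TPM in GFPlo, at 14.7, 15.7 and 11.7 TPM in GFPmed and at 18.1, 21.3 and 15.6 TPM in GFPhi. GFPhi lay above GFPlo in all samples but overlapped with GFPmed, and the log2FC was 0.48 (SE 0.16, 95% interval 0.11 to 0.84, adjusted p = 0.197). By limma-voom on reads the same comparison passed (adjusted p = 0.00530).

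Rela, the main transactivating subunit, was at 162.7, 161.3 and 171.2 TPM in GFPlo, at 163.3, 167.8 and 160.0 TPM in GFPmed and at 145.6, 172.2 and 144.9 TPM in GFPhi. A single GFPhi sample was the highest of all 9 and the other two were the lowest. The interval of the difference between GFPhi and GFPlo ran from 0.825-fold to 1.05-fold (log2FC -0.10, SE 0.08, adjusted p = 0.683), so a change of the size seen for Nfkb2 lies outside it.

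Among the IkB genes Bcl3 stood apart in size. Bcl3 is a nuclear IkB protein that binds p50 and p52 homodimers and can turn them into activators. It was at 5.03, 2.24 and 3.66 TPM in GFPlo, at 18.1, 13.7 and 18.1 TPM in GFPmed and at 105.5, 130.6 and 124.3 TPM in GFPhi. Each group was several-fold above the one before it. The mean in GFPhi was 33.0-fold that in GFPlo and 7.23-fold that in GFPmed, and the mean in GFPmed was 4.56-fold that in GFPlo. The log2FC between GFPhi and GFPlo was 4.74 on the log2(TPM + 1) scale (SE 0.23, limma, adjusted p = 6.5e-05), which understates the change of a gene as low as Bcl3 was in GFPlo.

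The GFPlo value of Bcl3 rests on 20 to 36 reads per sample, the GFPmed value on 116 to 249 and the GFPhi value on 1141 to 1314. Per kb of exon, GFPlo samples held 2.45 to 5.49 times the median of 1403 olfactory and vomeronasal receptor genes, which thymocytes are not known to express. The same ratio was 15.2 to 19.97 in GFPmed and 81.6 to 288.0 in GFPhi. The fold against GFPlo is therefore less certain than the levels in GFPmed and GFPhi. The antisense gene Gm16175 overlaps 161 bases, or 6.51%, of the exons of Bcl3. It went from 1.08 to 3.71 TPM in GFPlo to 38.2 to 46.1 TPM in GFPhi (log2FC 3.93, adjusted p = 0.000518), and without strand reads of the shared bases cannot be told apart.

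Nfkbia and Nfkbie, which hold dimers in the cytoplasm, both rose. Nfkbia, the classical feedback inhibitor, was at 370.9, 359.5 and 408.5 TPM in GFPlo, at 458.2, 465.1 and 531.6 TPM in GFPmed and at 631.6, 756.2 and 646.3 TPM in GFPhi. Its mean was 1.79-fold higher in GFPhi than in GFPlo (log2FC 0.83, SE 0.09, adjusted p = 0.00299). Nfkbie was at 21.1, 22.5 and 21.8 TPM in GFPlo, at 26.2, 26.4 and 24.2 TPM in GFPmed and at 39.4, 42.3 and 38.5 TPM in GFPhi. Its samples were the tightest of the rising IkB genes, with SDs of 0.671, 1.23 and 1.98 TPM, and its log2FC between GFPhi and GFPlo was 0.85 (SE 0.08, adjusted p = 0.00159).

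Nfkbid, a nuclear IkB protein that acts with c-Rel in Treg development, did not pass the test. It was at 164.9, 185.3 and 200.3 TPM in GFPlo, at 209.7, 197.5 and 224.4 TPM in GFPmed and at 185.0, 191.1 and 208.3 TPM in GFPhi. All 3 groups overlapped and the mean was highest in GFPmed. The interval of the difference between GFPhi and GFPlo ran from 0.922-fold to 1.23-fold (log2FC 0.09, SE 0.09, adjusted p = 0.785).

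Tnfaip3, which removes the ubiquitin chains that activate IKK, rose. It was at 71.8, 72.2 and 73.5 TPM in GFPlo, at 102.1, 82.7 and 97.1 TPM in GFPmed and at 114.4, 132.8 and 144.0 TPM in GFPhi. The GFPlo samples were nearly equal and the spread grew with the level. The log2FC between GFPhi and GFPlo was 0.83 (SE 0.11, adjusted p = 0.00552), which put Rel, Relb, Tnfaip3, Nfkbia and Nfkbie between 0.75 and 0.85.

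Levels of different genes were compared as RPM (reads scaled to the same total in every sample) divided by exonic length in kb, since the TPM in the table are not divided by exonic length. In GFPlo the order was Nfkbia at 94.5, Nfkbid at 66.0, Rela at 53.5, Nfkb2 at 21.6, Tnfaip3 at 15.04, Relb at 14.0, Rel at 12.1, Nfkbie at 9.22, Nfkb1 at 7.90 and Bcl3 at 1.39. For the neighbours Tnfaip3 and Relb, and Relb and Rel, the ranges of mean ± SD overlapped. In GFPhi the order was Nfkbia at 170.4, Nfkbid at 70.8, Rela at 50.4, Bcl3 at 46.3, Nfkb2 at 43.0, Tnfaip3 at 27.3, Relb at 25.6, Rel at 21.1, Nfkbie at 17.1 and Nfkb1 at 11.4. Bcl3 moved from the last place to the fourth. In GFPhi the ranges of mean ± SD overlapped for Rela and Bcl3, for Bcl3 and Nfkb2, and for Tnfaip3 and Relb. Exonic length counts every annotated exon, which lowers the level of genes with rarely used exons.

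The make-up of the subunit pool differed between the gates. On the per-exon scale Rela made up 48.1 to 50.6% of the 5 subunits in GFPlo samples, 42.4 to 44.3% in GFPmed and 31.0 to 35.1% in GFPhi. The mean share of Nfkb2 was 19.8% in GFPlo, 22.1% in GFPmed and 28.4% in GFPhi, and that of Relb 12.8%, 14.2% and 16.9%. Nfkb1 kept between 5.89 and 8.26% in every sample. The sum of the 5 subunits was 109.1 in GFPlo, 122.3 in GFPmed and 151.6 in GFPhi, on the same scale.

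In the IkB pool the shares of Bcl3 and Nfkbid differed between the gates. Bcl3 was 0.818% of the 4 IkB genes in GFPlo, 2.97% in GFPmed and 15.2% in GFPhi, on average over 3 samples. The mean share of Nfkbid was 38.5%, 35.4% and 23.3%. Nfkbia had 55.3, 56.5 and 55.9%, and the pool as a whole went from 171.1 to 212.7 and 304.6 on the same scale.

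**Figure D3:**
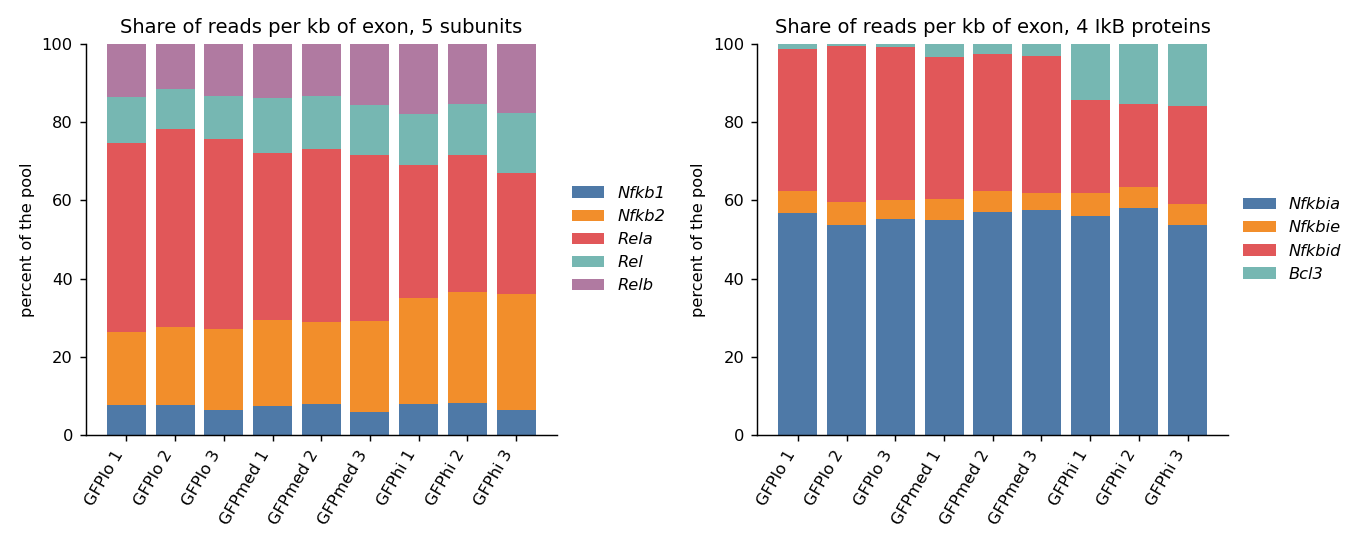
Share of each gene (y axis, percent) in the reads per kb of exon of the 5 subunits (left) and of the 4 IkB genes (right), 1 bar per sample. Rela shrinks from about 49.1% of the subunits in GFPlo to 33.3% in GFPhi, and Bcl3 grows from 0.818% to 15.2% of the IkB genes.

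Ratios of 2 members within a sample do not depend on the scaling between samples, and 5 were computed. Relb to Rela was 1.95-fold higher in GFPhi than in GFPlo and Rel to Rela 1.86-fold higher. Nfkb2 to Nfkb1, the precursors of p52 and p50, was 1.38-fold higher. Bcl3 to Nfkbia was 19.4-fold higher, and Nfkbid to Nfkbia stood at 0.597 of its GFPlo value. For each of the 5 ratios the 3 GFPhi samples lay on 1 side of the 3 GFPlo samples, which gives an exact two-sided permutation p of 0.1 (adjusted over the 5 ratios, 0.1). That is the smallest p that 3 samples against 3 can reach, so none could pass 0.05.

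Few differences between GFPmed and the other gates passed. Between GFPmed and GFPlo Bcl3 alone passed, with a log2FC of 1.96 (SE 0.23, limma, adjusted p = 0.0482), where 0.0717% of all genes rose. This call was narrow, since it was lost when any 1 library except GFPlo replicate 1 was left out, and over all alternatives its adjusted p ran from 0.00653 to 0.262. At an unadjusted p under 0.05, 7 of the 10 genes were higher in GFPmed than in GFPlo, where 2.73% of all genes were. Of these, Rel had a log2FC of 0.44 (SE 0.12, adjusted p = 0.696) and Tnfaip3 of 0.36 (SE 0.11, adjusted p = 0.736).

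Between GFPhi and GFPmed 3 of the 10 genes rose, where 0.899% of all genes did. They were Bcl3 (log2FC 2.79, SE 0.23, limma, adjusted p = 0.00185), Nfkb2 (0.64, SE 0.09, adjusted p = 0.0166) and Nfkbie (0.63, SE 0.08, adjusted p = 0.0117). Nfkbia, with a log2FC of 0.48 (SE 0.09, adjusted p = 0.0576), Tnfaip3, with 0.47 (SE 0.11, adjusted p = 0.0960), and Relb, with 0.51 (SE 0.12, adjusted p = 0.111), did not pass. Of these calls, those of Nfkb2 and Nfkbie were lost without any 1 of the GFPmed libraries or without GFPhi replicate 3, and that of Nfkb2 also without GFPhi replicate 2.

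**Figure D4:**
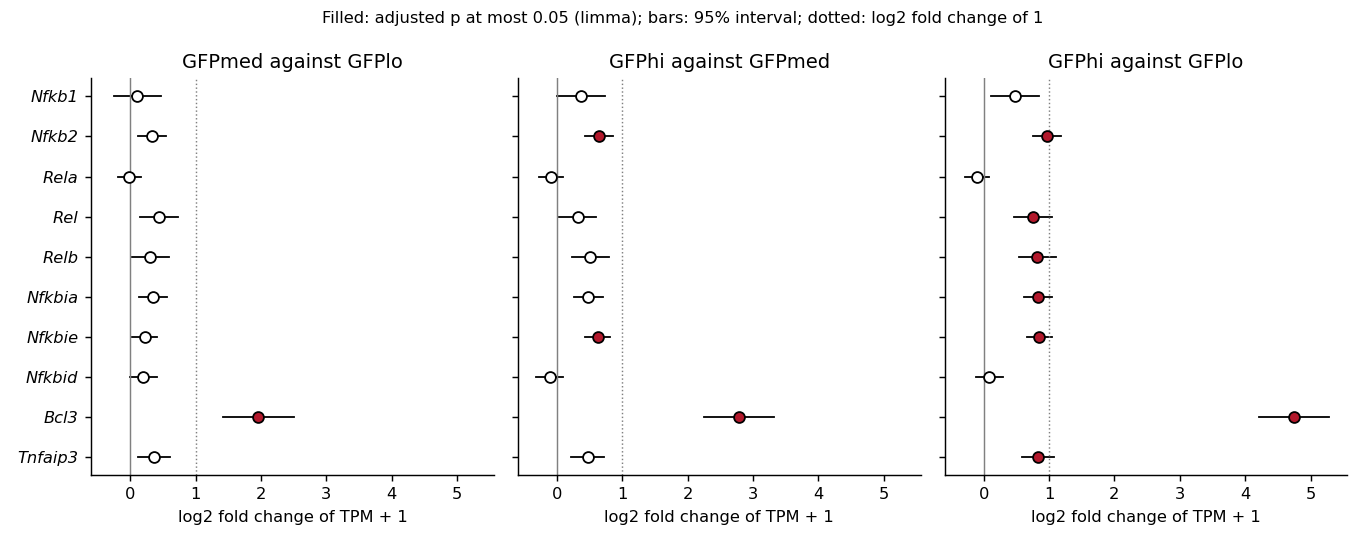
log2 fold change of TPM + 1 (x axis) of the 10 genes for each pair of gates, with 95% intervals from limma; filled points have an adjusted p of at most 0.05. Bcl3 is filled in all 3 panels at 1.96, 2.79 and 4.74, and Rela and Nfkbid lie across 0 in each.

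The 2 steps share the GFPmed samples, and their difference was tested directly. It passed for 0 of the 10 genes by limma and by limma-voom, and for 6 of 30693 genes in all by limma. At an unadjusted p under 0.05 it was positive for Nfkbie alone among the members, and for 2.21% of all genes (Nfkbie, 0.41 more in the upper step, SE 0.14, limma, adjusted p = 0.885). As a description, GFPmed had reached 58.2% of the log2 difference between GFPlo and GFPhi for Rel, 43.7% for Tnfaip3, 42.2% for Nfkbia, 41.3% for Bcl3, 37.4% for Relb, 34.0% for Nfkb2 and 26.1% for Nfkbie. Rel was the only one past the midpoint, a difference between genes that was not tested.

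Markers of other cells were read beside these results. All 8 SP4 markers, among them Cd4 at 445.5 to 609.2 TPM and Cd3e at 1022 to 1318 TPM, were present in every sample, and Cd69 fell (log2FC -0.79, adjusted p = 0.0142). Of the 8, 1 was higher and 3 were lower at an unadjusted p under 0.05, and 1 rose and 4 fell by limma-voom. Cd4 (log2FC -0.30, limma, adjusted p = 0.0532) and Zbtb7b (-0.72, adjusted p = 0.0739) were lower but did not pass. All 5 Treg markers rose from GFPlo to GFPhi although the gate was CD25-, and their summed level went from 111.7 to 117.3 RPM in GFPlo to 187.3 to 227.4 in GFPmed and 642.5 to 688.8 in GFPhi. In GFPhi this sum rested mostly on Ikzf2 (2934 to 3725 reads) and Tnfrsf18 (2425 to 3144), with Foxp3 at 351 to 399. The sum is therefore no measure of Treg content, and Foxp3 in GFPmed overlapped GFPlo. Foxp3, the factor that defines Treg, was at 6.57 to 7.04 TPM in GFPlo, 5.69 to 7.27 TPM in GFPmed and 13.9 to 18.4 TPM in GFPhi (log2FC 1.10). Markers of CD8 or double positive cells went the other way, from 149.6 to 157.6 RPM in GFPlo to 92.3 to 115.3 in GFPhi, with Cd8a, Cd8b1 and Dntt falling and Runx3 rising. The calls of Cd69 and Cd8a were lost without GFPlo replicate 2 or 3 or GFPhi replicate 3, and that of Runx3 without GFPlo replicate 3 or GFPhi replicate 3. Those of Cd69, Cd8a, Cd8b1 and Runx3 were lost with only the 2 groups in the fit. All of these except Runx3 were also lost with median-of-ratios scaling over all genes. Of 4 tested B cell and 6 tested myeloid markers 0 passed by limma, 0 at an unadjusted p under 0.05 and 0 by limma-voom. B cell markers summed to 14.4 to 44.7 RPM over the samples and myeloid markers to 39.0 to 66.8, with none of them at 0 in all samples. Epithelial markers summed to 6.90 to 21.9 RPM, and Epcam among them rose (log2FC 1.38), a call that was lost without GFPhi replicate 3. The part of these cells in the rise of the NF-kB genes was not tested.

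Genes around the members were read from lists of the same pathway, 65 genes in all, of which 62 were tested, 16 rose and 3 fell from GFPlo to GFPhi. Of all 30693 tested genes 730 rose (2.38%) and 464 fell. By limma-voom 2208 genes passed between these gates in either direction. The share of all genes at an unadjusted p under 0.05 between them was not computed. Counts at that p in the marker and pathway lists therefore have no share beside them. Of 10 genes for BCL10, MALT1, IKK and the kinases around them 0 rose (1 at an unadjusted p under 0.05 and 1 by limma-voom) and 1 fell, Prkcq, a protein kinase C that acts downstream of the TCR (log2FC -0.48, SE 0.07, limma, adjusted p = 0.0128). Prkcq was at 43.1, 42.5 and 43.8 TPM in GFPlo and at 28.9, 32.2 and 31.1 TPM in GFPhi. Its call was lost without GFPlo replicate 2, GFPlo replicate 3 or GFPhi replicate 3, with only the 2 groups in the fit and with median-of-ratios scaling over all genes. The median log2FC of this list was 0.02, with Bcl10 at 0.01 and Ikbkb at 0.20. Of the 4 genes of the linear ubiquitin ligase and Ripk1, 0 passed (2 at an unadjusted p under 0.05 and 1 by limma-voom), with Rbck1 at 0.17 and Sharpin at 0.22.

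The route to p52 is held back by TRAF2, TRAF3 and the cIAP ligases, which keep the kinase NIK (Map3k14) low. Of its 8 genes 1 rose (3 at an unadjusted p under 0.05 and 3 by limma-voom). It was Birc3, which encodes cIAP2 and is itself an NF-kB target. Birc3 was at 36.4, 39.5 and 37.7 TPM in GFPlo, at 48.6, 49.5 and 49.2 TPM in GFPmed and at 60.7, 73.3 and 70.8 TPM in GFPhi (log2FC 0.83, SE 0.09, limma, adjusted p = 0.00203). Its groups did not overlap, and its log2FC was equal to those of Nfkbia and Tnfaip3 to 2 decimals. With median-of-ratios scaling over all genes its call was lost (adjusted p = 0.0787). Map3k14 (log2FC 0.51, limma, unadjusted p = 0.0097, adjusted p = 0.141) and Traf2 (0.49, unadjusted p = 0.00538, adjusted p = 0.0962) were higher but did not pass. Traf1 (0.12) and Birc2 (0.22) did not pass either.

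Of 10 other IkB genes and ubiquitin brakes, 0 rose (3 at an unadjusted p under 0.05 and 3 by limma-voom) and 1 fell. The one that fell was Tnip2, which encodes an A20-binding protein, at 24.8, 26.3 and 29.3 TPM in GFPlo and 17.0, 18.6 and 19.3 TPM in GFPhi (log2FC -0.52, SE 0.10, limma, adjusted p = 0.0321). This call was lost without any 1 of the 9 libraries, and over all alternatives its adjusted p ran from 0.00385 to 0.523. The deubiquitinase gene Cyld had a log2FC of -0.13 and the A20 partner Tax1bp1 of 0.23, both short of the test. Tank, at 0.62, missed it narrowly (adjusted p = 0.0514).

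Receptors that signal to NF-kB held larger changes. Of 13 genes, 11 were tested (Ltbr and Tnfrsf11a were too low), 6 rose and 1 fell, with a median log2FC of 0.45. Over all tested genes 2.38% rose. Tnfrsf9 (4-1BB) was at 1.53 to 2.695 TPM in GFPlo, 11.3 to 14.1 TPM in GFPmed and 173.6 to 207.0 TPM in GFPhi (log2FC 5.96, SE 0.17, limma, adjusted p = 6.59e-06). Tnfrsf4 (OX40) was at 64.5 to 68.3 TPM in GFPlo, 193.1 to 256.5 TPM in GFPmed and 712.1 to 726.8 TPM in GFPhi (log2FC 3.41, SE 0.10, adjusted p = 7.74e-06). Tnfrsf25 (log2FC 3.20), Tnfrsf1b (2.77) and Tnfrsf18 (2.03) were the other DEG, Icos rose by less (0.45), and Tnfrsf1a fell (-0.58). The call of Icos was lost without GFPlo replicate 1, GFPlo replicate 2 or GFPhi replicate 3, and that of Tnfrsf1a without any 1 library except GFPmed replicate 1. Both were also lost with only the 2 groups in the fit and with median-of-ratios scaling over all genes. That of Tnfrsf1a was lost with this scaling on genes of 100 reads as well. Tnfrsf18 is also in the list of Treg markers. The costimulatory receptors Cd28 (-0.26) and Cd27 (0.24) did not pass.

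Of 20 textbook NF-kB target genes that are not members, 19 were tested and 9 rose, where 2.38% of all genes did. With a median log2FC of 0.07, the list was split between genes that rose and genes that did not pass. Il2ra (2.68), Gadd45b (2.64), Cd83 (2.15) and Bcl2a1d (1.85) were the DEG with the largest log2FC, and Lta and Bcl2a1b were DEG too. Gadd45b, a stress response gene, was at 16.6 to 22.8 TPM in GFPlo, 57.2 to 65.6 TPM in GFPmed and 116.3 to 148.2 TPM in GFPhi. Cd83 was low throughout, at 4.50 to 4.89 TPM even in GFPhi. Il2ra is a Treg marker as well, and the Bcl2a1 genes are near-identical copies, so reads cannot be assigned to 1 copy with certainty. The call of Bcl2a1b was lost without any 1 library except GFPhi replicate 1 or 2. It was also lost with another pseudocount, the replicate block, only the 2 groups or median-of-ratios scaling over all genes. Ltb rose by 0.73, Irf1 by 0.68 and Slfn2 by 0.63, and Ccr7, at -0.14, did not pass. Cflar, at -0.40, missed the test narrowly (limma, adjusted p = 0.0516). The calls of Ltb, Irf1 and Slfn2 were lost with median-of-ratios scaling over all genes, and that of Ltb also with only the 2 groups in the fit. No target fell by limma's adjusted p, where 4 were lower at an unadjusted p under 0.05 and 1 fell by limma-voom.

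**Figure D5:**
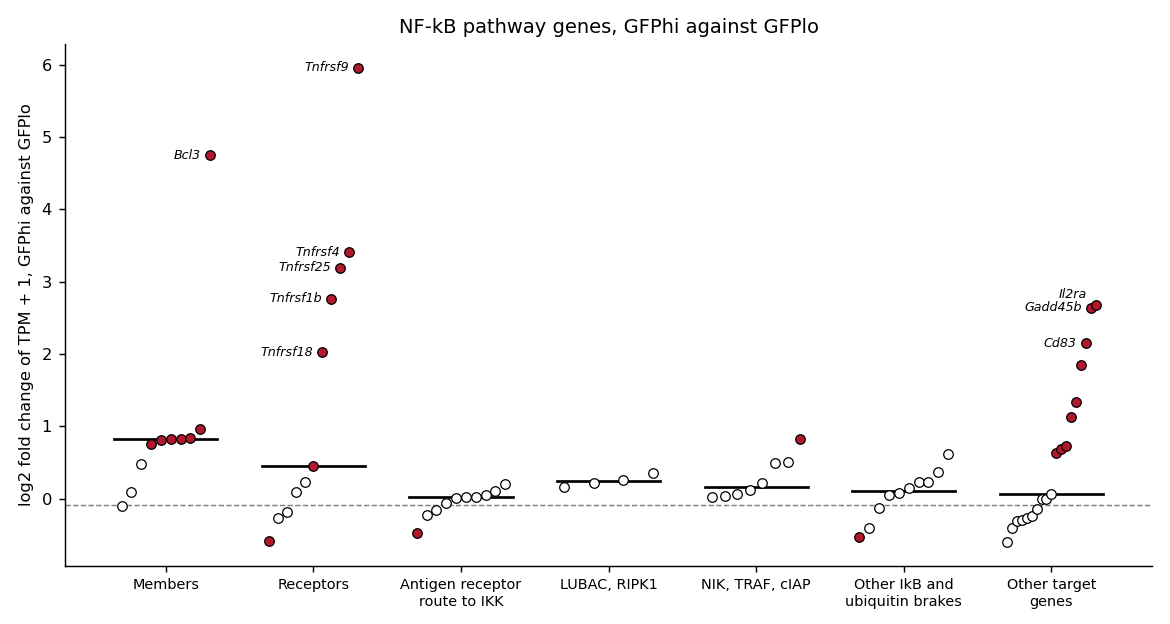
log2 fold change of TPM + 1 between GFPhi and GFPlo (y axis) of the 10 members and of 6 lists of pathway genes, 1 point per tested gene. Filled points have an adjusted p of at most 0.05 (limma), black lines are list medians and the dashed line is the median of all tested genes, -0.09. Tnfrsf9 at 5.96 and Bcl3 at 4.74 lie highest, and in the antigen receptor route to IKK the 1 filled point, Prkcq, is at -0.48.

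Across the 9 samples the rising members were closely correlated. Pearson's r of log2(TPM + 1) between Nfkb2 and Nfkbia was 0.977, between Nfkb2 and Bcl3 0.976 and between Nfkb2 and Tnfaip3 0.974, while Rela stood between -0.52 and -0.33 to the 7 that rose and Nfkbid between 0.10 and 0.37. Samples of the 3 gates share their group differences, so these are descriptions. Of 30683 other genes, the most like Bcl3 were H2-K1 (r = 0.995), its antisense neighbour Gm16175 (0.995) and Tagap (0.994). H2-K1, an MHC class I gene, was at 999.7 to 1198 TPM in GFPlo and 3125 to 3267 TPM in GFPhi. The most like Nfkb2 were Ppm1b (0.996), Foxn3 (0.995) and Fcho1 (0.993), and the most like Relb were Ptger2 (0.990), Bcl2a1d (0.990) and Sdhaf1 (0.989).

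The members lie on 7 chromosomes of GRCm38. Nfkb1 is at chr3:135584655-135691547, Nfkb2 at chr19:46304320-46312385, Rela at chr19:5637483-5648130, Rel at chr11:23736847-23770970 and Tnfaip3 at chr10:19000910-19015657. Nfkbia is at chr12:55489410-55492647, Nfkbie at chr17:45555703-45563169 and Nfkbid at chr7:30421732-30428746. Relb, at chr7:19606217-19629438, and Bcl3, at chr7:19808462-19822770, are on the minus strand 179023 bases apart. Of the 10 genes between them 5 were tested, with log2FC from -0.55 to 1.39 and a median of -0.22, and 0 passed by limma (3 at an unadjusted p under 0.05 and 1 by limma-voom). The count at an unadjusted p has no share of all genes beside it here either.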

How the data were processed

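The 9 libraries were made by SMART-seq from part of the RNA of 10000 sorted thymocytes each, with a kit that does not mark strand. After trimming, the authors aligned with STAR 2.7.11b (GRCm38, GENCODE), dropped duplicate reads, took gene counts and deposited TPM. The deposited table also holds the authors' mean normalized signal (counts divided by size factors) per group, and log2 fold changes, adjusted p-values and score flags of the authors' DESeq2 1.34.0 runs, and none of the last 3 was used.

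TPM and group means together gave whole reads (100% within 0.01 of a whole number, 41578 genes solved, 400 not). Reads carry no molecular identifiers. The lengths behind the TPM span introns, so levels between genes used exonic lengths of GENCODE, an earlier release than the authors'.

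limma 3.58.1 (R 4.3.3) tested log2(TPM + 1) with eBayes and a trend for the 30693 genes that reached a TPM of 1 in 3 or more samples. Ratios used exact permutation tests (scipy 1.17.1). The fit was tested on simulated data. p-values measure the spread between these 3 biological replicates. Members and lists were chosen with earlier results of these data known. An item is not reported here. Named genes are all members and, per list, up to 4 DEG with the largest log2FC and the 2 others with the highest mean TPM. This TPM is not divided by exonic length, so these 2 need not be the most abundant. Genes that passed, or narrowly missed, the test, and Map3k14, Traf2 and Zbtb7b, were named after their values were seen. Alternatives were another pseudocount, no filter, median-of-ratios scaling, limma-voom on solved reads, only 2 groups, a replicate block, no fold limit and each library left out. Median-of-ratios scaling on genes of at least 100 reads in every sample was added after seeing the data. All 9 sample columns were used.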

Additional observations from a re-analysis of the deposited data

How the results depend on the processing

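Bcl3 stayed a DEG between GFPhi and GFPlo under every alternative run. The number of members that rose there, 7, became 2 (Nfkbie and Bcl3) with median-of-ratios scaling over all genes, 5 with only the 2 groups and 8 with limma-voom, and ran from 5 to 7 without 1 library. All genes past the adjusted p in either direction, 1194 in the main fit, became 413, 551 and 2208 in these settings. Without 1 library they ran from 587 to 957. Scaling on 8635 genes of at least 100 reads left 7 members, with 1397 genes past in all. The scaling factors ran from 0.874 to 1.21 over 30272 genes and from 0.945 to 1.04 over the 8635. DEG numbered 1 to 2 without 1 library (Nfkb2 joined without GFPlo replicate 3 or GFPhi replicate 1), and 7 with no fold limit. Between GFPmed and GFPlo the 1 call became 0 with no filter, median-of-ratios scaling, only the 2 groups or the replicate block, and 0 to 1 without 1 library. All genes past the adjusted p there, 23, became 16, 5, 11 and 5 in these settings, and 2 to 23 without 1 library. Between GFPhi and GFPmed the 3 that rose became 1 with median-of-ratios scaling or only the 2 groups, 5 with that scaling on genes of 100 reads, 8 with limma-voom and 1 to 3 without 1 library, and the 1 DEG became 3 with no fold limit. All genes past the adjusted p there, 463, became 104, 218, 664 and 1523 with these 4 settings, in that order. Pathway genes that passed, 19, became 10 with median-of-ratios scaling and 29 with limma-voom. The cause was not tested.

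Signs turned only near 0. Rela between GFPmed and GFPlo had a log2FC of 0.0135 with median-of-ratios scaling, 0.0148 without GFPlo replicate 3 and 0.0048 without GFPmed replicate 3 (range without 1 library, -0.0293 to 0.0148). The step difference of Tnfaip3 was -0.0716 without GFPmed replicate 2 (range -0.0716 to 0.2296), and Bcl10 was at -0.0617, -0.0091 and -0.1334 without GFPlo replicate 1, GFPlo replicate 2 and GFPhi replicate 3 (range -0.1334 to 0.1114). Of the members' values under the alternatives, 582 kept direction and side of the threshold, 36 lost the call, 8 gained it and 4 turned. Median-of-ratios scaling moved the median of all genes from -0.09 to -0.02.

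With group means removed, same-numbered samples of different gates correlated from 0.0122 to 0.225 (mean 0.0609). Differently numbered ones correlated from -0.186 to 0.148 (mean -0.0305). The ranges overlapped and the means differed, which does not settle whether the numbers pair the samples. The main fit did not pair them. With the replicate block 7, 0 and 3 members passed between GFPhi and GFPlo, GFPmed and GFPlo, and GFPhi and GFPmed. Depth limits Bcl3 in GFPlo, at 20 to 36 reads.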
